A study of Homo sapiens with 12 samples.

Results

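Of the 25369 genes in the deposited tables, 10 were taken by symbol: DDIT4, DDIT4L, SESN1, SESN2, SESN3, TSC1, TSC2, RPTOR, MTOR and DEPTOR. They encode mTOR, its partners and the main stress-induced brakes on it. No measured value was used as a filter, but earlier results of these data were known when they were chosen. Poly(A)+ RNA was sequenced from 3 established human cancer lines, RKO (colon carcinoma), A549 (a lung adenocarcinoma line) and H460 (lung large cell carcinoma), after 24 h in normoxia or in hypoxia (1% O2). Each of the 6 groups of line and oxygen condition had 2 replicates, 12 libraries in all, and no group carried a genetic change or a drug. RKO and A549 cells grew in DMEM and H460 cells in RPMI, so medium and line cannot be told apart in comparisons with H460. Each line is one tumour-derived culture, and the submitters describe the replicates as biologically independent.

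mTOR is a kinase that drives protein synthesis and growth when nutrients, growth factors and energy are plentiful. It works in mTORC1, which contains RPTOR, and in mTORC2, and RHEB on the lysosome switches mTORC1 on. The TSC1-TSC2 complex turns RHEB off. DDIT4, also called REDD1, is a textbook target of the hypoxia-inducible factors that acts through this complex, and the sestrins slow mTORC1 by binding GATOR2, through which amino acids are sensed. The question was whether transcripts of these brakes and of their target move together when oxygen falls, and whether the 3 lines do so alike.

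Summed counts per library ranged from 27350424 to 41757584, and the 10 genes took 0.0533% to 0.298% of them. Libraries in one group differed by more than counting error (chi-square over its degrees of freedom, 9.60 to 72.0). CA9, a classical hypoxia target used to check the labels, was higher in hypoxia in every line, by 4.45, 5.65 and 6.81 on the log2 scale in RKO, A549 and H460. Of 5 epithelial markers, 3 or 4 exceeded 1 CPM (a gene's reads scaled to the size of its library) in both libraries of each group. CDH1 averaged under 1 CPM in RKO and H460, EPCAM in H460, and KRT19 in A549 and hypoxic RKO. The summed epithelial level was 104 to 196 CPM in RKO, 2474 to 3107 CPM in A549 and 1789 to 2525 CPM in H460. Lineage markers were mostly absent: 1 of 5 colon markers passed that level in RKO (CDX2), 1 of 5 lung markers in A549 (NAPSA), where 1 colon marker did so too (CDH17), and 0 in normoxic and 1 in hypoxic H460 (NKX2-1). Markers of leukocytes (PTPRC and CD3E), red cells (HBB) and endothelium (PECAM1 and VWF) averaged under 1 CPM in every group, with CD3E and HBB at 0 reads. Of the whole list of 8 markers of other cell types, 0 to 2 passed 1 CPM in both libraries of a group, and their summed level was 0.664 to 2.82 CPM in RKO, 12.4 to 20.5 CPM in H460, 49.4 to 85.6 CPM in normoxic A549 and 132 to 432 CPM in hypoxic A549. Most of the A549 sum was the fibroblast gene COL1A1, at means of 65.1 and 279 CPM, and its part in the A549 results was not tested.

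In what follows a CPM value is scaled by the trimmed mean of M values (TMM) over all 12 libraries, and RPKM, which also divides by transcript length, is used to compare genes. A gene rose or fell where the edgeR adjusted p was under 0.1 and the fold change over 1.5. In RKO 4 of the 9 genes tested rose and 1 fell, and of all genes tested in that line 33.9% passed, 18.8% upwards and 15.1% downwards. In A549 0 of 10 passed by edgeR, against 2.67% of all genes (2.22% upwards and 0.456% downwards), although 1 had an unadjusted p under 0.05. DESeq2 called 1, and its share over all genes is not given. In H460 5 rose and 1 fell, against 51.9% of all genes (24.6% upwards and 27.3% downwards). For the 10 genes RKO had a median log2 fold change of 0.35, A549 of -0.03 and H460 of 0.68, and the medians of all genes tested were 0.01, -0.01 and -0.04. Hypoxia and normoxia libraries did not overlap for 7 of 9, 5 of 10 and 8 of 10 of these genes, and the same held for 70.3%, 49.7% and 86.4% of all genes, so the counts of non-overlapping genes lay near those of the whole table.

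**Figure D1:**
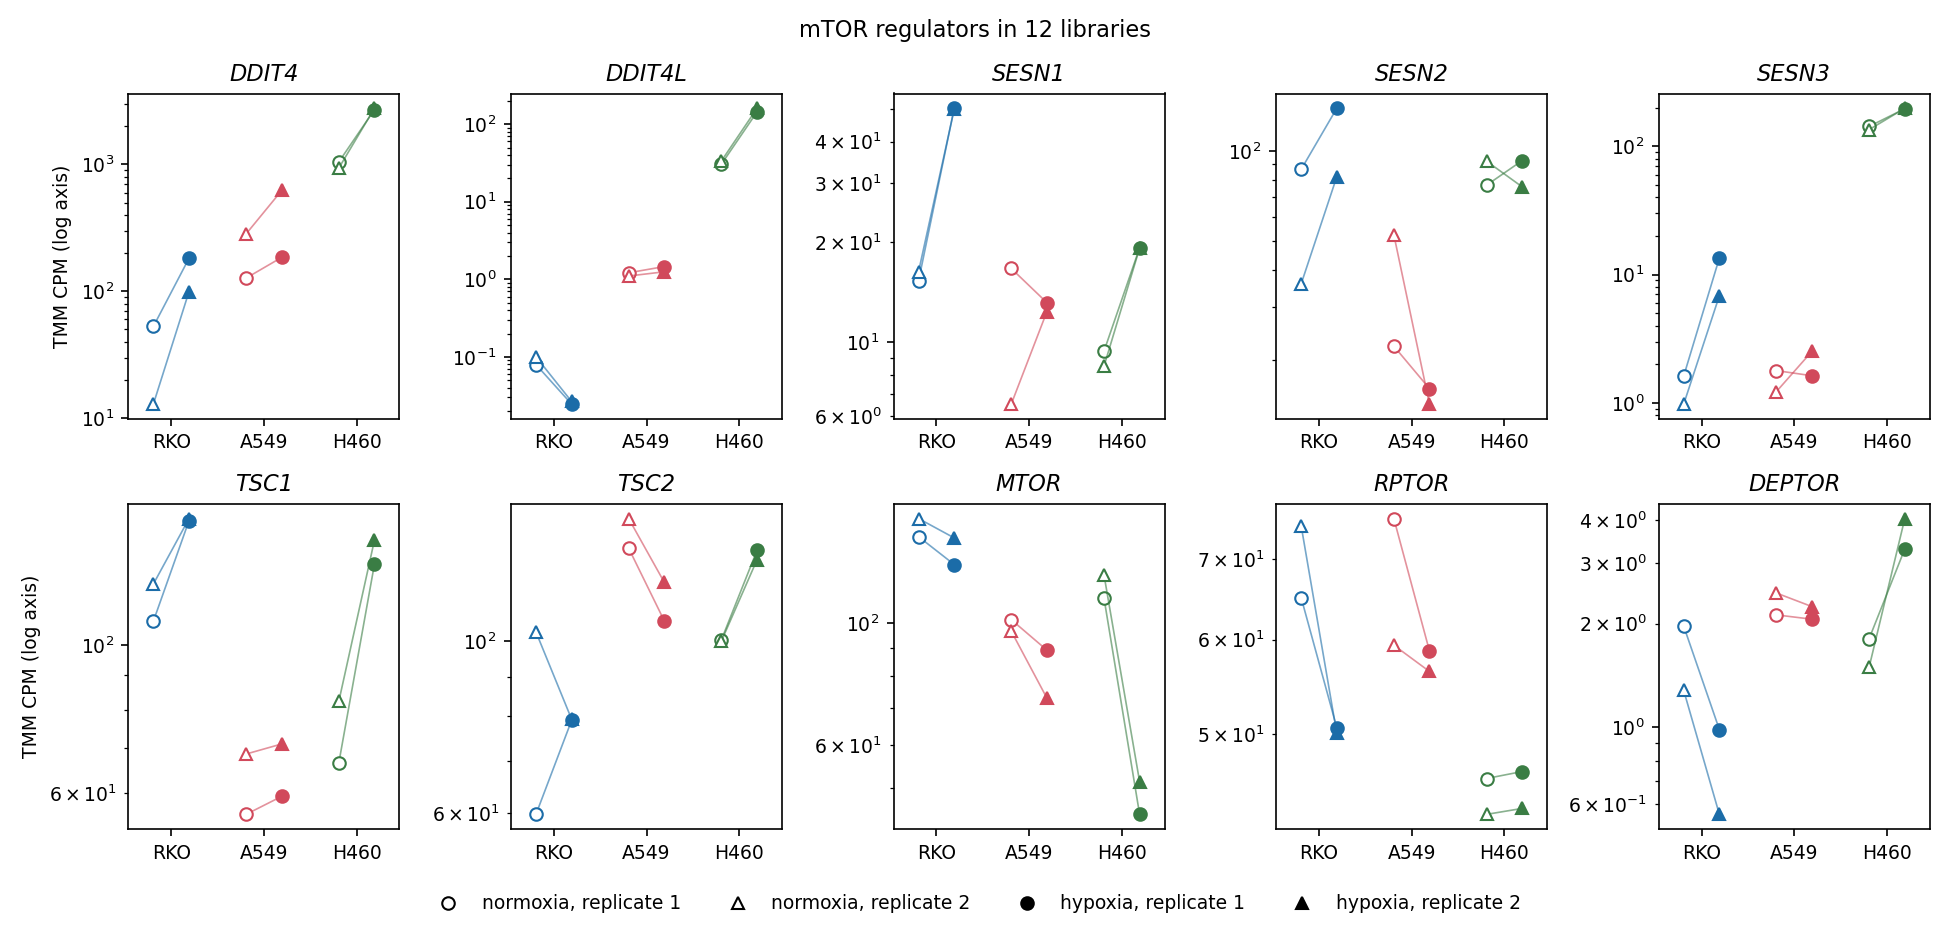
TMM-scaled CPM (log axis, with its own range in each panel) of the 10 genes in 12 libraries. Open symbols are normoxia, filled symbols hypoxia, circles replicate 1, triangles replicate 2, and lines join libraries of one line with the same replicate number. DDIT4 and TSC1 were higher in hypoxia in all 6 pairs and MTOR lower in all 6, while SESN2 was higher in 3 and lower in 3.

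DDIT4 lies on chromosome 10 at 74033677-74035797 (plus strand, GRCh37) and had the highest mean RPKM of the 10 genes in all 6 groups. In RKO it read 52.8 and 12.9 CPM in normoxia and 182 and 99.6 CPM in hypoxia. In A549 the 4 values were 127 and 283 CPM, then 185 and 624 CPM. H460 cells had 1046 and 936 CPM in normoxia and 2703 and 2771 CPM in hypoxia. The conditions were separate in RKO and H460, and in A549 the lower hypoxia library lay below the higher normoxia library. DDIT4 rose by 2.04 ± 0.49 on the log2 scale in RKO (SE, n = 2 per condition, 4.10-fold, edgeR adjusted p = 0.00836). In H460 it rose by 1.45 ± 0.11 (2.73-fold, edgeR adjusted p = 2.11e-07). In A549 the estimate was 0.96 ± 0.50 (edgeR adjusted p = 0.377), and with the replicate number as a block it was 0.83 ± 0.14 (edgeR adjusted p = 7.94e-05), a call in a fit that called 13.4% of all A549 genes.

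The replicate spread of DDIT4 was wide in RKO and A549. Its replicates differed 4.10-fold in RKO normoxia and 3.37-fold in A549 hypoxia, where the median gene with a mean of at least 100 counts differed 1.12-fold and 1.16-fold. In H460 they differed 1.12-fold in normoxia and 1.03-fold in hypoxia. Within same-numbered pairs the hypoxia library was higher in every case, by a log2 ratio between 0.54 and 2.95. Of all genes tested, 15% were higher in all 6 pairs. In A549 the estimate was -0.15 without hypoxia replicate 2, and it was 1.58 and called without hypoxia replicate 1. The RKO estimate stayed called between 1.35 without normoxia replicate 2 and 3.39 without normoxia replicate 1.

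By RPKM, DDIT4 ranked 42 of 25369 genes in hypoxic H460 cells at a mean of 1261 RPKM, up from rank 100 in normoxia. Its rank moved from 3991 to 667 in RKO and from 474 to 227 in A549. The promoter bases of DDIT4 are shown because this gene was higher in hypoxia in every pair, and those of MTOR because it was lower in every pair. Those of DDIT4L, the paralogue of DDIT4, are shown because it was nearly silent in RKO and rose in H460. TSC1 was also higher in every pair, and its bases are not shown. Each run holds the 250 bases before the RefSeq transcription start, 5′ to 3′ on the gene's strand, at chr10:74033432-74033681 (plus), chr4:101111626-101111875 (minus) and chr1:11322609-11322858 (minus) of GRCh37. Capitals mark ACGTG or GCGTG, the core letters of the hypoxia response element, searched on both strands.
DDIT4: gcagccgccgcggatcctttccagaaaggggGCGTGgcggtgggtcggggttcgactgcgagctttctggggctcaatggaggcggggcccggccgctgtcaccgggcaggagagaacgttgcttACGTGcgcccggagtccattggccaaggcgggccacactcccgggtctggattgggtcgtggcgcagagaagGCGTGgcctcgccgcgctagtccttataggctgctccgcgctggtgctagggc
DDIT4L: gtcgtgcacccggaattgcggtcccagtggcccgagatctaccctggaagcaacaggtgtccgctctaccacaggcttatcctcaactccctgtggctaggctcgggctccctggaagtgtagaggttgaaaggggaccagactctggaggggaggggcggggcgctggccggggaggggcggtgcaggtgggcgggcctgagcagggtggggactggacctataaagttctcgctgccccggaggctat
MTOR: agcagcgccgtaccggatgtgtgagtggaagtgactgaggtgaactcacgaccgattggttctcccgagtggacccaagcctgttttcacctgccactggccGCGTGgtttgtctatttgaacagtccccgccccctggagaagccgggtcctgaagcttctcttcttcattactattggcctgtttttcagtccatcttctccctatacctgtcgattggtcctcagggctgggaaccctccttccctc

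DDIT4 held 1 ACGTG and 3 GCGTG in its window of 250 bases before and 50 after the start, at -219, -125, -53 and +26 from the start, the last of which lies past the bases shown. MTOR held 1 GCGTG, at -148, and DDIT4L held 0. Of 27305 promoter windows of this length, 48.4% held at least 1 such core and 4.45% at least 4. RPTOR held 2 GCGTG, TSC2 held 2 ACGTG that overlap as 1 CACGTG, an E box present in 7.43% of windows, and SESN1, SESN2, SESN3 and TSC1 held 0. A window was at hand for 9 of the 10 genes. These are counts of letters in short windows and say nothing of factor binding.

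DDIT4L (chromosome 4, 101107027-101111655, minus strand), also called REDD2, inhibits mTORC1 as DDIT4 does. It was almost silent in RKO, with 3 and 4 reads in normoxia and 1 and 1 in hypoxia, too few for a test. A549 cells had 1.21 and 1.10 CPM in normoxia and 1.46 and 1.25 CPM in hypoxia (log2 fold change 0.21 ± 0.37, edgeR adjusted p = 0.813). H460 cells had 30.5 and 33.5 CPM, then 144 and 160 CPM. DDIT4L rose by 2.23 ± 0.10 on the log2 scale in H460 (4.70-fold, edgeR adjusted p = 5.10e-09), the largest fold change among the 10 genes in that line. The paralogues therefore differed in range: DDIT4 was measured in all 3 lines and DDIT4L in quantity in H460 alone, where it averaged 12.7 RPKM in normoxia and 46.6 RPKM in hypoxia.

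SESN1 (chromosome 6, 109307640-109415708, minus strand), a stress-induced sestrin, had 15.3 and 16.3 CPM in normoxic and 50.3 and 49.98 CPM in hypoxic RKO cells. In H460 it had 9.40 and 8.47 CPM, then 19.2 and 19.2 CPM. It rose by 1.61 ± 0.17 on the log2 scale in RKO (3.05-fold, edgeR adjusted p = 0.000132) and by 1.09 ± 0.13 in H460 (2.13-fold, edgeR adjusted p = 1.02e-05). With limma on log2(RPKM + 1) the H460 value was 0.56 and under the fold limit. A549 cells had 16.6 and 6.52 CPM in normoxia and 13.1 and 12.4 CPM in hypoxia, so both hypoxia libraries lay between the normoxia libraries. The A549 estimate was 0.12 ± 0.38 (edgeR adjusted p = 0.901), and it was -0.40 without normoxia replicate 2 and 0.96 without normoxia replicate 1.

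SESN2 (chromosome 1, 28585963-28609002, plus strand), a leucine sensor induced by ATF4 and other stress factors, went different ways. RKO cells had 86.6 and 35.9 CPM in normoxia and 139 and 81.9 CPM in hypoxia, which overlap. SESN2 rose there by 0.79 ± 0.34 on the log2 scale (1.72-fold, edgeR adjusted p = 0.0944), but DESeq2 gave an adjusted p of 0.380, and the edgeR call was lost without normoxia replicate 2 (0.28) or hypoxia replicate 1 (0.41). A549 cells had 22.2 and 52.4 CPM, then 16.0 and 14.2 CPM, with both hypoxia libraries lowest. That estimate was -1.31 ± 0.35 (edgeR adjusted p = 0.121). With the replicate block it was -1.19 ± 0.22 and called lower (edgeR adjusted p = 0.000201), and DESeq2 also called it (adjusted p = 0.00478), while without normoxia replicate 2 it was -0.57 and not called. H460 cells had 76.7 and 92.3 CPM in normoxia and 92.7 and 75.8 CPM in hypoxia, with an estimate of -0.02 ± 0.12.

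SESN3 (chromosome 11, 94898677-94965705, minus strand), known as a FOXO target, was scarce in RKO and A549 and abundant in H460. In RKO it had 1.62 and 0.979 CPM in normoxia and 13.5 and 6.85 CPM in hypoxia, without overlap. It rose there by 2.90 ± 0.38 on the log2 scale (7.49-fold, edgeR adjusted p = 0.000398), the largest fold change of any of the 10 genes in any line. A549 cells had 1.79 and 1.23 CPM, then 1.63 and 2.53 CPM, which overlap (0.44 ± 0.39, edgeR adjusted p = 0.611). H460 cells had 143 and 135 CPM in normoxia and 196 and 198 CPM in hypoxia. The H460 difference of 0.49 ± 0.09 passed the test (edgeR adjusted p = 0.000261) but at 1.40-fold stayed under the fold limit.

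**Figure D2:**
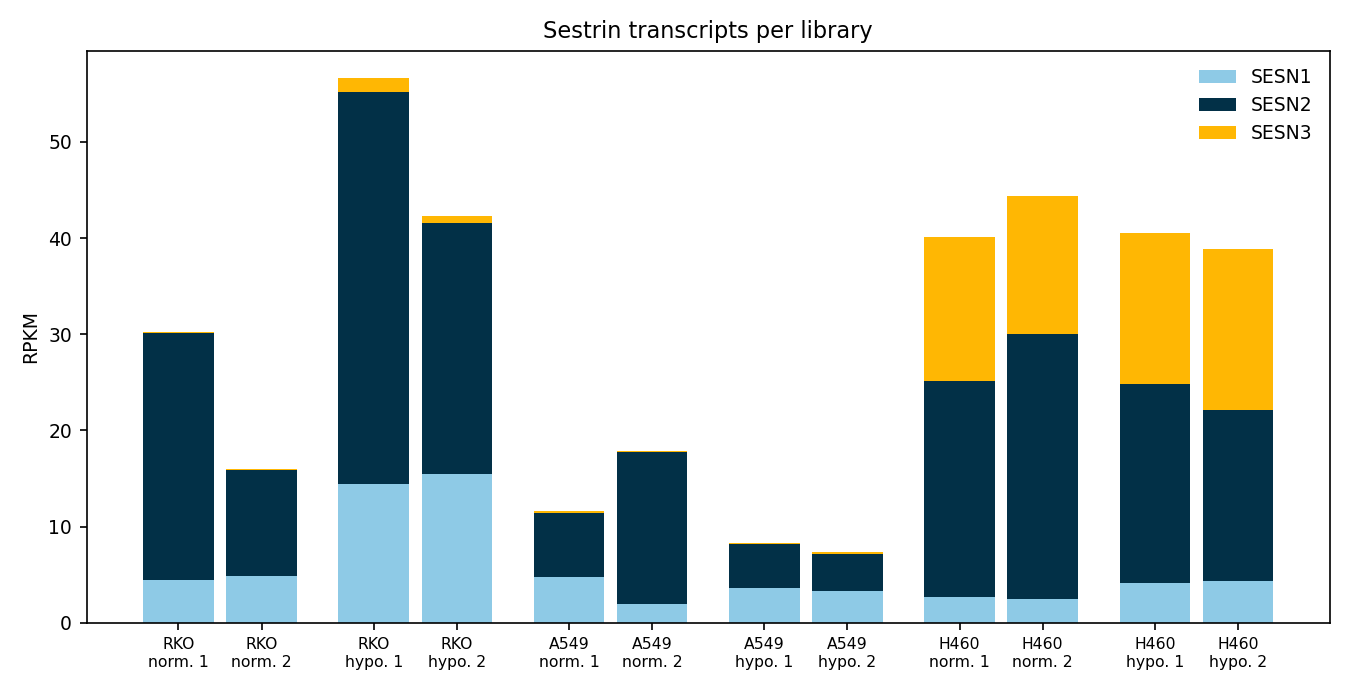
RPKM of SESN1, SESN2 and SESN3, stacked, in each of the 12 libraries (norm., normoxia; hypo., hypoxia; the digit is the replicate). SESN2 took the largest share in every library, and SESN3 took 32.5% to 42.9% of the sum in H460 against at most 3.35% elsewhere.

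SESN2 made up 45.8% to 62.0% of the summed sestrin RPKM in H460, 61.6% to 84.9% in RKO and 52.4% to 88.5% in A549. SESN3 made up 32.5% to 42.9% in H460 and 0.570% to 3.35% in the other lines. The summed sestrin RPKM was 30.3 and 15.9 in normoxic and 56.7 and 42.3 in hypoxic RKO cells. In A549 it was 11.6 and 17.9 RPKM in normoxia and 8.33 and 7.40 RPKM in hypoxia, with both hypoxia libraries lowest. H460 libraries ranged from 38.8 to 44.4 RPKM and overlapped between conditions. RPKM carries no TMM factor, so in H460 it understates hypoxia levels relative to the CPM values: per kilobase of TMM-scaled CPM the H460 sums were 38.9 and 42.2 in normoxia and 51.5 and 46.9 in hypoxia.

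Of TSC1 and TSC2, the subunits that together switch RHEB off, TSC1 was called in H460 and neither was called in RKO or A549. TSC1 (chromosome 9, 135766735-135820020, minus strand) had 66.5 and 82.3 CPM in normoxic and 132 and 144 CPM in hypoxic H460 cells and rose by 0.87 ± 0.11 on the log2 scale (1.83-fold, edgeR adjusted p = 1.69e-05). With scaling by library size alone that value was 0.52 and under the fold limit. RKO cells had 109 and 123 CPM, then 154 and 155 CPM, a difference of 0.35 ± 0.15 that passed the test (edgeR adjusted p = 0.0880) and not the fold limit. A549 cells had 55.7 to 71.1 CPM with overlap (0.05 ± 0.19). TSC1 was higher in hypoxia in all 6 same-numbered pairs, by a log2 ratio between 0.05 and 0.99, as were 15% of all genes tested.

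TSC2 (chromosome 16, 2097990-2138713, plus strand), which holds the GTPase-activating domain, was not called in any line. Its log2 fold changes were -0.10 ± 0.22 in RKO, -0.31 ± 0.17 in A549 and 0.35 ± 0.08 in H460, the last at an edgeR adjusted p of 0.00226. The sign of the H460 value turned to -0.00126 with library size alone. Normoxic RKO replicates stood apart for TSC2, at 59.7 and 103 CPM, with 79.0 and 79.3 CPM in hypoxia between them.

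MTOR (chromosome 1, 11166588-11322608, minus strand), the kinase itself, had 111 and 122 CPM in normoxic and 44.8 and 51.4 CPM in hypoxic H460 cells. It fell by 1.29 on the log2 scale (SE 0.10, edgeR adjusted p = 3.44e-07), to 0.408 of its normoxia level. RKO cells had 144 and 155 CPM, then 128 and 143 CPM (-0.20 ± 0.15), and A549 cells had 101 and 96.6 CPM, then 89.2 and 73.0 CPM (-0.30 ± 0.18). Neither was called, although hypoxia libraries lay below normoxia libraries in both. MTOR was lower in hypoxia in all 6 same-numbered pairs, as were 14.3% of all genes tested.

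RPTOR (chromosome 17, 78518625-78940173, plus strand), the scaffold that brings substrates to mTORC1, was not called in any line. RKO cells had 65.1 and 74.7 CPM in normoxia and 50.6 and 50.1 CPM in hypoxia. That difference of -0.53 ± 0.15 passed the test (edgeR adjusted p = 0.0195) and, at 0.691 of the normoxia level, missed the fold limit. The estimates were -0.25 ± 0.19 in A549 and 0.00 ± 0.09 in H460, where all 4 libraries lay between 42.9 and 46.5 CPM. RPTOR in H460 is sensitive to scaling and read -0.35 with library size alone.

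DEPTOR, an inhibitor bound to both mTOR complexes, was among the 3 least abundant of the 10 genes by mean RPKM in every group, and moved in opposite directions in RKO and H460. RKO libraries held 74 and 51 DEPTOR reads in normoxia and 40 and 21 in hypoxia, and H460 libraries 51 and 51, then 78 and 116. It fell by 1.12 on the log2 scale in RKO (SE 0.42, edgeR adjusted p = 0.0547) and rose by 1.14 ± 0.24 in H460 (2.21-fold, edgeR adjusted p = 0.00109). In A549 it had 2.12 and 2.45 CPM in normoxia and 2.06 and 2.24 CPM in hypoxia (-0.10 ± 0.33). The RKO call was lost with DESeq2 (adjusted p = 0.123) and without normoxia replicate 1 (-0.78) or hypoxia replicate 2 (-0.77). With limma on log2(RPKM + 1) the RKO and H460 values fell under the fold limit, at -0.33 and 0.36.

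**Figure D3:**
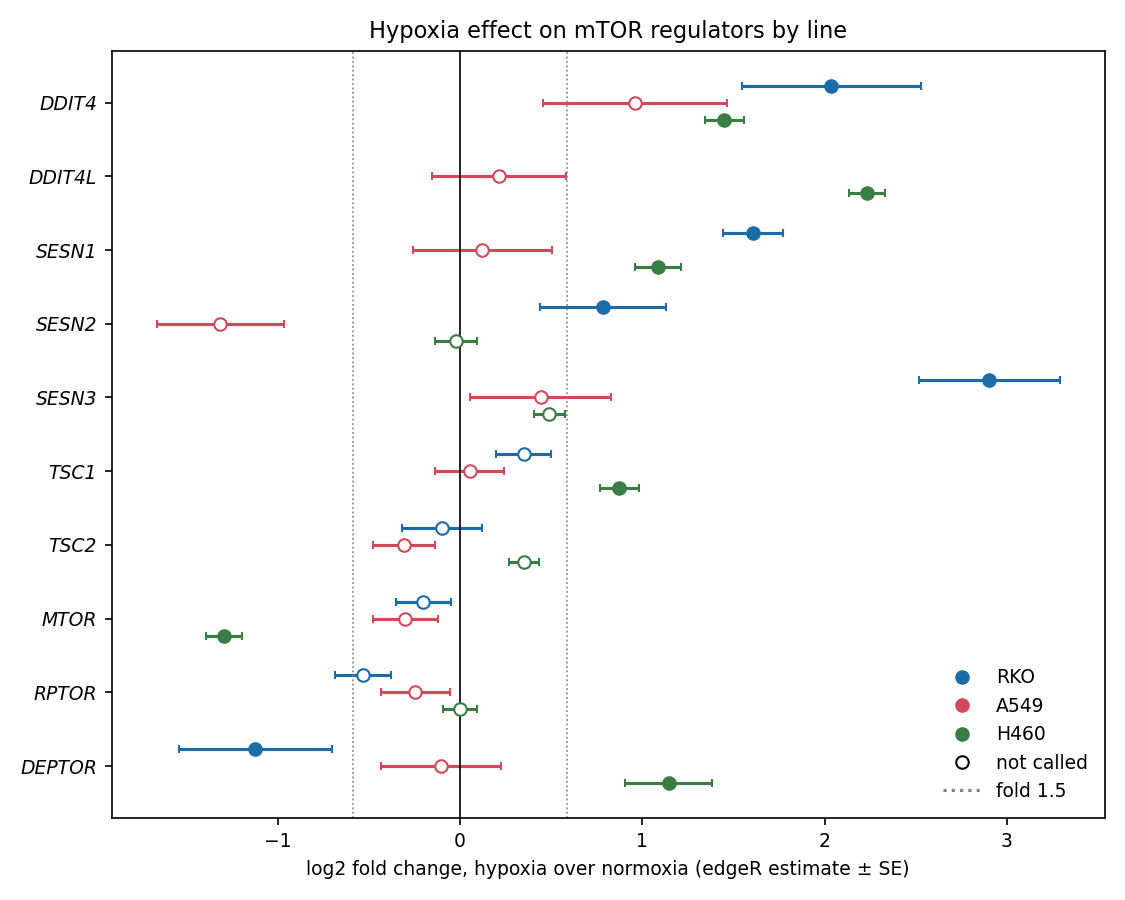
Log2 fold change of hypoxia over normoxia (edgeR estimate, bars ± SE, 2 libraries per condition) for the 10 genes in each line. Filled points passed both the adjusted p and the fold limit, and dotted lines mark 1.5-fold. DDIT4L could not be tested in RKO, and DEPTOR stands at -1.12 in RKO and 1.14 in H460.

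A joint fit of all 12 libraries tested whether the effect of hypoxia differed between lines. With TMM scaling it did for 7 of the 10 genes at an edgeR adjusted p under 0.1, where 48.8% of all genes passed: DDIT4L, SESN1, SESN2, SESN3, TSC1, MTOR and DEPTOR. The TSC1 call was lost with library size alone (edgeR adjusted p = 0.109), with limma and without H460 normoxia replicate 1 (edgeR adjusted p = 0.120). DDIT4, the gene with the highest level, was not among them (edgeR adjusted p = 0.4998), but with the replicate block it was (edgeR adjusted p = 0.00834), as were TSC2 (0.0625) and RPTOR (0.0824). RKO and A549 differed in 3 of the 10 genes, all of them sestrins, where 14.6% of all genes differed. The effect was larger in RKO than in A549 by 1.53 ± 0.41 for SESN1, 2.15 ± 0.56 for SESN2 and 2.52 ± 0.48 for SESN3 on the log2 scale (edgeR adjusted p = 0.0363, 0.0315 and 0.00754). RKO and H460 differed in 5 genes (37.6% of all genes) and A549 and H460 in 6 (36% of all genes). These pairwise comparisons share libraries.

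For DDIT4L, MTOR and DEPTOR the effect in H460 differed from that in both other lines. For DDIT4L the A549 effect minus the H460 effect was -2.02 ± 0.25 (edgeR adjusted p = 0.000121), and the RKO difference (edgeR adjusted p = 0.00124) rests on 1 to 4 reads per RKO library. For MTOR the effect in H460 was lower than in RKO by 1.14 ± 0.20 and than in A549 by 0.99 ± 0.20 on the log2 scale (edgeR adjusted p = 0.000923 and 0.00265). For DEPTOR the RKO effect minus the H460 effect was -2.21 ± 0.49 (edgeR adjusted p = 0.00401), and the A549 effect minus the H460 effect was -1.24 ± 0.46 (edgeR adjusted p = 0.0594). For DDIT4 the RKO effect exceeded that in H460 by 0.64 ± 0.81, less than its SE. Averaged over the lines, 3 of the 10 genes rose: DDIT4 by 1.52 ± 0.34, SESN1 by 0.97 ± 0.17 and SESN3 by 1.31 ± 0.18. Of all genes tested, 14.8% rose on that average and 26.4% were called in either direction. MTOR averaged -0.57 ± 0.08 (edgeR adjusted p = 5.36e-05), just under the fold limit, and was called with library size alone (-0.72) and with limma.

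Before hypoxia, the lines already differed in these genes. DDIT4 stood at 32.9 ± 28.2 CPM in RKO, 205 ± 110 CPM in A549 and 991 ± 78.2 CPM in H460 (mean ± SD, n = 2), and each pair of lines differed (edgeR adjusted p between 1.41e-05 and 0.00441). SESN3 averaged 1.30 CPM in RKO, 1.51 CPM in A549 and 139 CPM in H460, 107-fold and 91.8-fold higher in H460. DDIT4L averaged 0.0900, 1.16 and 32.0 CPM in the same order, and its RKO value rests on 7 reads. RKO and A549 differed in 5 of the 10 genes, RKO and H460 in 6, and A549 and H460 in 5, against 60.2%, 61.9% and 52.1% of all genes. DEPTOR differed between no pair of lines by edgeR at these limits.

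By mean RPKM, neighbours in the order of genes often overlapped. In normoxic RKO cells DDIT4, SESN2, MTOR, TSC2 and TSC1 averaged 19.8, 18.3, 18.2, 15.4 and 14.3 RPKM, and each overlapped the next. In hypoxic RKO cells DDIT4, at 86.0 RPKM, stood clear of SESN2 at 33.5 RPKM. In A549 DDIT4 was followed by TSC2 without overlap, at 124 and 25.9 RPKM in normoxia and 224 and 19.6 RPKM in hypoxia. In H460 the gap was widest: DDIT4 averaged 589 RPKM in normoxia against 25.0 RPKM for SESN2, and 1261 RPKM in hypoxia against 46.6 RPKM for DDIT4L.

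The other genes of the pathway, a list of 71, were split between directions. In RKO 10 rose and 9 fell of 68 tested (27.9% called, against 33.9% of all genes). In H460 24 rose and 11 fell of 70 (50% called, against 51.9% of all genes). The totals called in either direction lay near those of the whole table, and the H460 split by direction did not. Over all genes, 18.8% rose and 15.1% fell in RKO, and 24.6% rose and 27.3% fell in H460. With TMM scaling the same shares stand beside the group counts below. In A549 0 of 70 passed by edgeR, 11 had an unadjusted p under 0.05, and DESeq2 called 4, a count with no share over all genes beside it. The replicate block gave 6 higher and 2 lower, near its share of 13.4% over all genes. RKO had a median log2 fold change of -0.08 over this list, A549 of -0.05 and H460 of 0.19. Without TMM factors the RKO split became 11 higher and 5 lower and the H460 split 17 higher and 23 lower, and log2 fold changes in H460 moved by -0.35 at the median over all genes. Of all genes called, the part that was higher then went from 55.6% to 64.6% in RKO and from 47.5% to 26.5% in H460. The shares without TMM factors stand beside the counts with library size alone below.

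**Figure D4:**
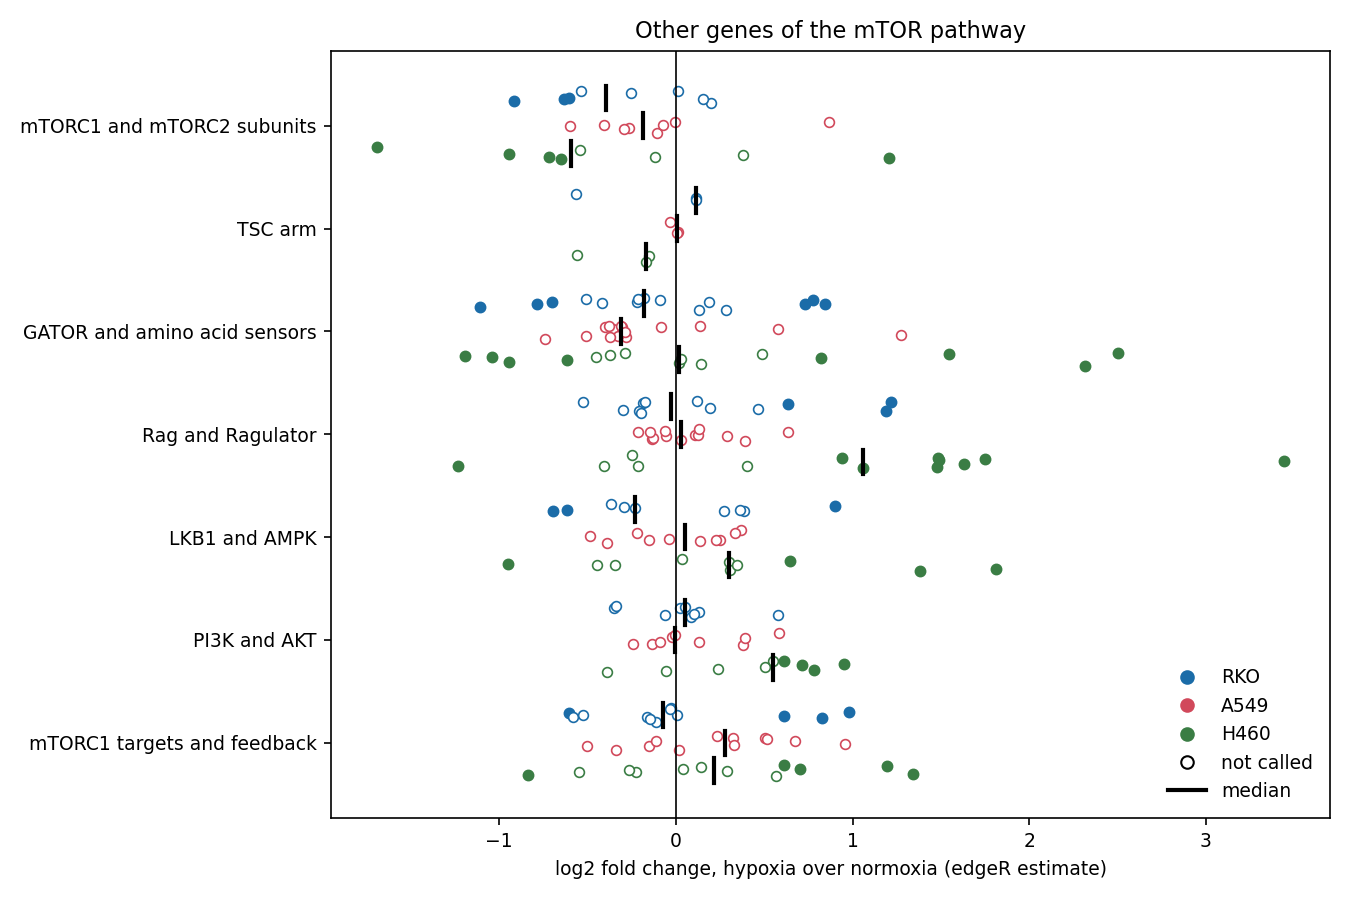
Log2 fold change of hypoxia over normoxia (edgeR estimate) for the other genes of the mTOR pathway, by group and line. Filled points passed the limits, and black bars are medians. The Rag and Ragulator group stands to the right in H460, with a median of 1.06, and the subunits of mTORC1 and mTORC2 to the left, with a median of -0.60.

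Genes of the Rag GTPases, which hold mTORC1 on the lysosome, and of their regulators had the highest median of the 7 groups in H460 and medians near 0 in RKO (-0.03) and A549 (0.03). In H460 8 of 13 rose and 1 fell, with a median of 1.06 on the log2 scale, and 8 rose and 3 fell with library size alone. RRAGD, a Rag subunit, averaged 3.98 CPM in normoxia and 43.4 CPM in hypoxia, scaled within H460, and rose by 3.45 ± 0.15 on the log2 scale (edgeR adjusted p = 3.97e-09). In RKO 3 of 12 rose and 0 fell, among them RRAGA by 1.22 ± 0.17 and FLCN, the GTPase-activating partner of RRAGC and RRAGD, by 1.19 ± 0.15 (edgeR adjusted p = 0.000469 and 0.000373). All 3 of these genes rose in H460, RRAGA by 1.49 and FLCN by 1.48.

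The GATOR complexes and amino acid sensors, to which the sestrins bind, moved both ways. In H460 4 of 15 rose and 4 fell (3 and 7 with library size alone), and in RKO 3 rose and 3 fell. C7orf60, which encodes the S-adenosylmethionine sensor SAMTOR, rose by 2.50 ± 0.16 on the log2 scale in H460, and GATSL3, the arginine sensor CASTOR1, by 2.32 ± 0.11 (edgeR adjusted p = 7.42e-08 and 1.00e-08). SEH1L, a GATOR2 and nuclear pore subunit, fell by 1.11 in RKO (SE 0.15, edgeR adjusted p = 0.000493). GATSL2, the paralogue of GATSL3, was the 1 pathway gene called in opposite directions, 0.73 ± 0.16 in RKO and -1.04 ± 0.17 in H460, and was named after its values were seen.

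The other subunits and assembly factors of mTORC1 and mTORC2 had medians of -0.39 in RKO, -0.19 in A549 and -0.60 in H460, with 0 rising and 3 falling of 8 in RKO and 1 rising and 4 falling in H460 (0 and 1 in RKO, 1 and 5 in H460 with library size alone). Of 3 genes on the TSC arm, RHEB among them, 0 passed in any line by edgeR, and 1, 0 and 1 had an unadjusted p under 0.05 in RKO, A549 and H460, with 1 lower in H460 under library size alone. In the LKB1 and AMPK group 1 of 9 rose and 2 fell in RKO, and 3 of 10 rose and 1 fell in H460 (2 and 3 with library size alone). In the PI3K and AKT group 0 of 9 passed in RKO (1 at an unadjusted p under 0.05), and 4 of 9 rose in H460, where library size alone left 1 higher and 1 lower. Of 12 targets and feedback genes of mTORC1, 3 rose and 1 fell in RKO and 4 rose and 1 fell in H460 (2 and 3 with library size alone).

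Known regulators of these genes did not move as one group either. HIF1A mRNA, which encodes the oxygen-regulated HIF subunit, fell by 1.75 on the log2 scale in RKO and by 1.16 in A549, and was at -0.14 ± 0.11 in H460. EPAS1, encoding HIF2A, rose by 1.29 ± 0.25 in RKO and 1.42 ± 0.09 in H460 and was -0.08 ± 0.23 in A549. ATF4 mRNA was 0.53 ± 0.10 in H460, under the fold limit, -0.27 ± 0.21 in RKO and -0.63 ± 0.19 in A549, where the libraries did not overlap (edgeR adjusted p = 0.170). FOXO3 rose by 0.80 ± 0.23 in RKO and 1.93 ± 0.11 in H460 and was 0.54 ± 0.22 in A549 (edgeR adjusted p = 0.262). FOXO1 passed in no line, but in H460 it was -0.57 ± 0.14 without overlap (edgeR adjusted p = 0.00286), just under the fold limit. Transcript levels of these factors do not measure their protein or activity.

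Across the 12 libraries, after the mean of each line was removed from log2 CPM, the genes most like each brake among 10395 genes were listed by Pearson r, as a description. The points share libraries and the shift between conditions. For DDIT4 they were ZNF627 (0.969), GOLPH3L (0.964) and GSTZ1 (0.960). TUBB3 (0.985) and HOMER3 (0.974) were among the genes most like SESN1. SESN2 was most like ASNS, asparagine synthetase (0.956), CNST (0.950) and AARS, alanyl-tRNA synthetase (0.941). For SESN3 they were GOLGA2P7 (0.980), KAT2B (0.979) and CEP85L (0.978), the first a pseudogene whose reads may be shared with its parent family.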

How the data were processed

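Per the labels and the study's methods, strand-specific single-end poly(A)+ reads were trimmed at their 3′ ends, aligned to GRCh37/hg19 with TopHat2 2.0.13, filtered on mapping quality, marked for duplicates with Picard 1.129 and counted per gene with HTSeq 0.6.1 in reverse-stranded mode. The authors deposited these counts, with no normalization, for 25369 genes, and deposited RPKM values, which are the counts divided by gene length and summed counts. Depth was 27350424 to 41757584 counts per library.

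Here each line was fitted on its 4 libraries with edgeR 4.0.16 (R 4.3.3; quasi-likelihood F test, TMM), for genes over 0.5 CPM in at least 2 libraries, with Benjamini-Hochberg adjustment over all genes tested. A call needed an adjusted p under 0.1 and a fold change over 1.5, and an interaction call the adjusted p alone. Joint contrasts used all 12 libraries. Each edgeR SE is the absolute log2 fold change divided by the square root of its quasi-likelihood F statistic. Log2 fold changes had a median SE of 0.184 (RKO), 0.223 (A549) and 0.114 (H460). The scripts were tested on simulated counts. Alternatives were DESeq2 1.42.0, limma 3.58.1 on log2(RPKM + 0.1) and log2(RPKM + 1), RLE or library size scaling, other filters and thresholds, a joint fit, each library left out, and a replicate block. The labels do not say that a replicate number marks a shared day, but deviations of same-numbered libraries from their group means correlated over genes in each line (0.363, 0.382 and 0.158). The numbers were taken to pair the libraries only in the replicate block and in same-numbered ratios. The main fits, per line and joint, held no replicate term, so their p-values ignore this pairing. With the block 35.8% (RKO), 13.4% (A549) and 52.1% (H460) of all genes were called. Within a line the block is fitted on 4 libraries and leaves little to measure residual spread. Its SEs and p-values there lean on spread shared over genes.

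All 10 genes are named, with the 3 called pathway genes of largest fold change per line, the 3 genes most like DDIT4 and each sestrin among those over 10 CPM, known regulators and CA9, and 2 of the genes this rule names are not reported here. The genes, lists and tests were chosen with earlier results of these data known. The pathway list came from general knowledge. Promoter windows are RefSeq sequences matched to GRCh37.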

Additional observations from a re-analysis of the deposited data

Results flagged for a closer look

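For 7 genes the effect of hypoxia differed between lines in the joint edgeR interaction test, and for each the pair of lines with the strongest evidence is given as a difference of log2 fold changes. SESN1 differed between RKO and A549 by 1.53 ± 0.41 (SE), and SESN2 by 2.15 ± 0.56. SESN3 differed between RKO and H460 by 2.47 ± 0.41, although the H460 level was far higher in both conditions. DDIT4L differed between A549 and H460 by -2.02 ± 0.25 and TSC1 by -0.82 ± 0.22. MTOR differed between RKO and H460 by 1.14 ± 0.20. DEPTOR differed between RKO and H460 by -2.21 ± 0.49, and it was the 1 gene of the 10 called in opposite directions in these lines. Medium and line cannot be told apart for any difference with H460.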

How the results depend on the processing

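Counts of calls moved by over 1.5 times in these cases, and the cause was not tested. Of the 10 genes, RKO gave 5 and DESeq2, limma on log2(RPKM + 0.1) without a filter, or an adjusted p under 0.05 gave 3. A549 gave 0, against 1 with DESeq2, no filter or the joint fit, 2 with the replicate block and 0 to 2 with a library left out. H460 gave 6, against 3 with limma on log2(RPKM + 1), where SESN1, TSC1 and DEPTOR were lost. The average over lines gave 3, against 6 with no minimum fold, and normoxia levels of A549 against H460 gave 5, against 3 to 6 with a library left out (3 without A549 normoxia replicate 1). Of the pathway genes, RKO gave 19, against 12 with limma on log2(RPKM + 1) or unfiltered log2(RPKM + 0.1), 3 at 2-fold and 29 with no minimum fold. A549 gave 0, against 4 with DESeq2 or no filter, 6 with the joint fit, 8 with the replicate block and 0 to 10 with a library left out (10 without hypoxia replicate 1). H460 gave 35, against 19 at 2-fold and 60 with no minimum fold. Of all A549 genes, 2.67% were called in the main fit and 13.4% with the replicate block. Shares of all genes under the other settings of this paragraph are not given. Changes in these counts therefore cannot be told apart from changes in the whole table.

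Signs of log2 fold changes turned in these cases. With limma on log2(RPKM + 0.1), with or without a filter, TSC2 was 0.036 in RKO, TSC1 -0.036 in A549, TSC2 -0.00133 and RPTOR -0.34 in H460, and TSC2 -0.12 and DEPTOR -0.11 on average. With limma on log2(RPKM + 1) the same values were 0.031, -0.032, -0.00126, -0.30, -0.12 and -0.020. With library size alone TSC1 was -0.041 in A549, TSC2 -0.00126 and RPTOR -0.35 in H460, and TSC2 -0.14 and DEPTOR -0.15 on average. SESN2 in H460 was 0.011 with DESeq2 and 0.010 with RLE factors, RPTOR in H460 -0.022 over 2 CPM, and DEPTOR on average -0.00244 with no filter and -0.00368 with the replicate block. With a library left out, DDIT4 in A549 ranged from -0.15 to 1.64, SESN1 in A549 from -0.40 to 0.96, TSC1 in A549 from -0.087 to 0.21, TSC2 in RKO from -0.44 to 0.34, SESN2 in H460 from -0.19 to 0.14, RPTOR in H460 from -0.087 to 0.073, and on average SESN2 from -0.32 to 0.11, TSC2 from -0.10 to 0.16 and DEPTOR from -0.15 to 0.12.

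The replicate block added calls for DDIT4 and SESN2 in A549 for the interaction of DDIT4, TSC2 and RPTOR, and for 8 pathway genes in A549, and changed no other call among the 10 genes. With the block 13.4% of all A549 genes were called. An interaction was gained for DDIT4 without RKO normoxia replicate 1 (0.0677) or A549 hypoxia replicate 2 (0.0784), for TSC2 without RKO normoxia replicate 1 (0.0156) or 2 (0.0163), and for RPTOR without A549 normoxia replicate 1 (0.0816) or 2 (0.0935), all edgeR adjusted p. The TSC1 interaction was lost without H460 normoxia replicate 1 (edgeR adjusted p = 0.120), with library size alone (0.109) and with limma (adjusted p = 0.133 to 0.167). DDIT4 and TSC2 also gained an interaction with no filter (6.35e-05 and 0.0540). The average MTOR effect was called with library size alone (-0.72), with limma (-0.71 to -0.64) and without RKO hypoxia replicate 2, A549 hypoxia replicate 1, H460 normoxia replicate 1 or H460 hypoxia replicate 2 (-0.62 to -0.59). Other settings kept direction and call for 413 single values, lost 17 calls and added 15. With 2 libraries per condition, leaving 1 out assumes that the lone library varies like the others.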

Other observations

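The replicates of DDIT4 and SESN2 differed in the same direction in both RKO conditions and in A549 normoxia. In RKO replicate 1 was the higher for both genes in normoxia (4.10-fold and 2.42-fold) and in hypoxia (1.83-fold and 1.69-fold). In A549 normoxia replicate 2 was the higher for both (2.23-fold and 2.36-fold), and in hypoxia replicate 2 was higher for DDIT4 (3.37-fold) and replicate 1 for SESN2 (1.126-fold). SESN1 went the other way in A549 normoxia, where replicate 1 was 2.55-fold higher. These ratios lay above 96.5% of genes with a mean of at least 100 counts, except for SESN2 in A549 hypoxia, which lay above 41.3%. What differed between the replicates was not tested.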
